A study of Capra hircus with 6 samples.

Results

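Collagens are the structural proteins of connective tissue and basement membranes, built from alpha chains that wind around each other into a long helix. The genes described here are those of the collagen alpha chains in goat (Capra hircus) medio-basal hypothalamus, the base of the hypothalamus with the arcuate nucleus and median eminence. They were chosen by symbol, as the rows of the deposited count table named COL, a type number, A and a chain number. The rule found 44 of the table's 28907 rows, and 42 of these were among the 16756 genes that passed a filter on low counts. By collagen type, 11 members are fibrillar, 8 belong to the basement membrane or its border, and 25 form the remaining classes, of which 23 passed the filter.

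The libraries came from adult Alpine goats. Of these, 5 were taken in January while in the follicular phase, when an ovulatory follicle matures, and 8 in mid-May while in anestrus, when ovarian cycles have ceased. RNA of each goat entered random equimolar mixes, and 2 such pools per condition were sequenced from polyadenylated RNA, so season and ovarian state differ together between the groups. How many goats a pool held, and whether both pools of a condition could hold the same goat, is not stated in the sources used here. All p-values therefore measure the spread between 2 pools per group, not between goats. The luteal phase libraries of the series, from another 5 goats, were not analysed here.

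Values of a group are given with pool 1 first and pool 2 second throughout. Library totals ranged from 14553821 to 25292678 counts. Levels are CPM, the usual depth-scaled read count, taken from each library's total over the genes that passed the filter, after TMM scaling. That scaling corrects for differences in composition between libraries. Levels are not corrected for transcript length, so they are compared between libraries and not between genes. In a block of tissue, fewer cells of a type and less RNA per cell cannot be told apart. Neuron markers had summed levels of 5284 and 6046 CPM in the follicular pools, against 4668 and 4448 CPM in the anestrus pools. Markers of the anterior pituitary and its pars tuberalis, which lies against the median eminence, summed to 6362 and 5056 CPM in the follicular pools, against 15644 and 12310.0 CPM in the anestrus pools. All members of both marker lists found in the table had counts. TSHB and CGA, the thyrotropin subunits, passed the test in the pituitary list, higher in anestrus. CGA made up most of that list's sum, at 5232 and 4295 CPM in the follicular pools, against 13142 and 10309 CPM in the anestrus pools. TSHB was at 4.80 and 6.80 CPM, against 1200 and 811 CPM, in the same order. Of the 12 pituitary markers tested, 2 had a log2 fold change above 0, beside 49.9% of all genes. DIO2, the deiodinase that activates thyroid hormone, also passed the test, higher in anestrus, in a list of 12 tested tanycyte and ependyma markers. Of 12 neuron and 8 microglia and blood markers tested, 0 were called (all genes 0.203%). All 12 and all 8 had a log2 fold change above 0 (all genes 49.9%), with medians of 0.37 and 0.25.

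Fibrillar collagens, types I, II, III, V, XI, XXIV and XXVII, assemble into the banded fibrils of connective tissue. In the brain they are known mainly from the meninges and the sheaths of larger vessels. Type IV collagen forms the sheet-like network of basement membranes, which in the brain surround capillaries and line the tissue surface, and types XV and XVIII sit at the border of such membranes. The other collagens include the FACIT types, which attach to the surface of fibrils, the beaded filaments of type VI, the anchoring fibrils of type VII, the short-chain networks of types VIII and X, and chains that span the cell membrane.

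None of the 42 collagen genes tested was called at an adjusted p of 0.05 (edgeR's quasi-likelihood test), where 34 of all 16756 genes, or 0.203%, were called. DESeq2 called 0 of 42 (all genes 0.853%), and so did limma-voom (all genes 0.179%). Adjusted p-values of the members ran from 0.282 to 0.999 (edgeR). At an unadjusted p under 0.05 there were 8 members, or 19.0%, beside 8.55% of all genes tested. Of these, 5 lay higher in anestrus (all genes 4.29%) and 3 in the follicular phase (all genes 4.26%). That count was 4 without follicular pool 1 (all genes 3.18%), 4 without follicular pool 2 (5.19%), 16 without anestrus pool 1 (15.8%), 10 without anestrus pool 2 (14.3%) and 14 with the pool number as a block (13.9%). The number called depended on the anestrus pools: without anestrus pool 1 there were 7, COL9A2, COL9A3, COL6A2, COL6A5, COL5A3, COL3A1 and COL11A1 (all genes 4.88%), and without anestrus pool 2 there were 2, COL1A2 and COL2A1 (all genes 3.31%). With no count filter there were 2, COL6A5 and COL9A2 (all genes 1.38%).

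The median log2 fold change, follicular minus anestrus, was -0.070 over the 42 members, beside -0.00067 over all genes tested. It was above 0 for 18 members and below 0 for 24, while 49.9% of all genes were above 0. In 21 of the 42 the groups had no overlap in CPM, a share of 50.0% beside 38.3% of all genes tested. Of these, 13 were higher in both anestrus pools (31.0%, beside 20.7% of all genes) and 8 in both follicular pools (19.0%, beside 17.6%). For 29 of the 42 the gap between the group means was no larger than the wider gap between the pools of one group. That count was not taken over all genes tested, so it does not set collagens apart. Together the 44 genes took 0.182% and 0.174% of all counts in the follicular phase, and 0.208% and 0.191% during anestrus.

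**Figure D1:**
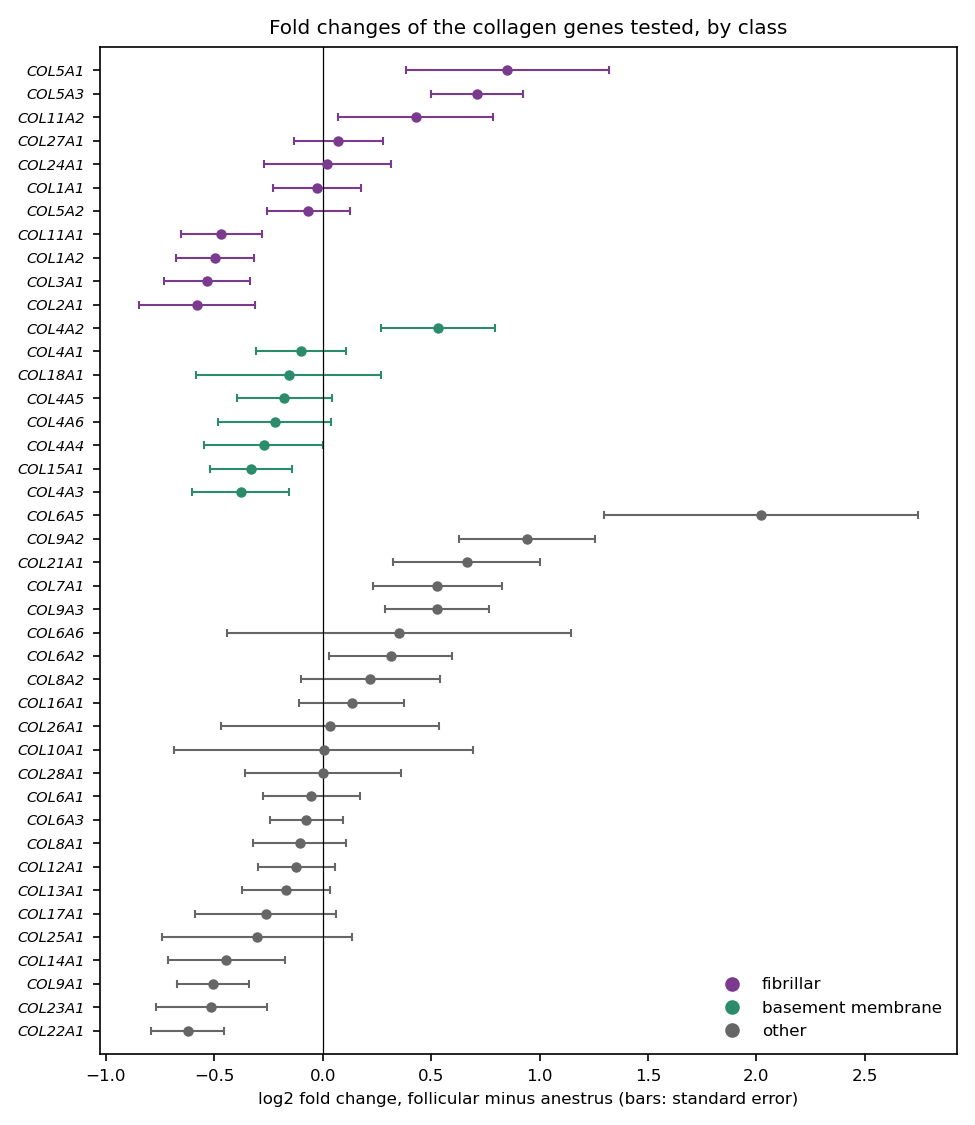
Log2 fold change (horizontal axis, follicular minus anestrus) of the 42 collagen genes tested, ordered by class and size. Points are estimates and bars their standard errors; the fibrillar genes spread from -0.58 to 0.85, and 7 of the 8 basement membrane genes lie below 0.

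The fibrillar class held chains that lay in both directions, from -0.58 to 0.85, with a median log2 fold change of -0.027 over 11 genes. Of these 11, 4 were higher in both anestrus pools, 3 in both follicular pools and 4 overlapped, so that 63.6% had no overlap, beside 38.3% of all genes. At an unadjusted p under 0.05 there were 4 of 11 (36.4%, beside 8.55% of all genes), namely COL1A2, COL3A1 and COL11A1, higher in anestrus, and COL5A3, higher in the follicular phase.

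COL1A2 encodes the alpha 2 chain of type I collagen, the main fibril of skin, bone and tendon. It was at 290.0 and 297 CPM in the follicular pools, against 477 and 350 CPM in the anestrus pools. Both anestrus pools were above both follicular pools, but they lay further apart from each other than the group means did. The difference was 1.41-fold higher in anestrus (log2 fold change -0.49 ± 0.18, standard error, adjusted p = 0.444, edgeR), and it was -0.25 on the log2 scale without anestrus pool 1 and -0.66 without anestrus pool 2. COL1A1, which encodes the alpha 1 chain of the same fibril, was at 78.4 and 66.0 CPM in the follicular pools, against 86.2 and 61.1 CPM in the anestrus pools. Its groups overlapped and its log2 fold change was -0.027 ± 0.20.

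COL3A1 encodes type III collagen, which shares fibrils with type I in soft tissue and vessel walls. It was at 56.3 and 76.5 CPM in the follicular pools, against 86.9 and 105 CPM in the anestrus pools. The groups did not overlap, and the log2 fold change was -0.53 ± 0.20 (adjusted p = 0.456, edgeR), with -0.77 to -0.31 when 1 pool was left out. Next to COL3A1 in the RefSeq annotation of assembly ARS1.2 lies COL5A2, a chain of type V collagen, which seeds and limits fibrils. COL5A2 overlapped between groups, at 65.5 and 84.7 CPM in the follicular pools, against 70.7 and 86.2 CPM in the anestrus pools. For both neighbours pool 2 was the higher pool of each group, as in 21.4% of the members and 29.1% of all genes tested.

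The other type V chains lay the other way from type III. COL5A3 was at 48.2 and 45.1 CPM in the follicular pools, against 32.3 and 24.7 CPM in the anestrus pools, 1.64-fold higher in the follicular phase (log2 fold change 0.71 ± 0.21, adjusted p = 0.320, edgeR). The pools of a group lay closer together than the groups did. COL5A1 had the largest fibrillar log2 fold change, at 0.85 ± 0.47, but from few reads: 66 and 39 counts in the follicular phase against 22 and 21 during anestrus. That is 2.60 and 2.27 CPM against 1.54 and 1.17 CPM, without overlap.

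Type II and type XI collagens are known best from cartilage, where they form mixed fibrils. COL2A1 was at 22.6 and 23.9 CPM in the follicular pools, against 43.9 and 25.8 CPM in the anestrus pools. Anestrus pool 1 stood apart, and the log2 fold change of -0.58 ± 0.27 became -0.15 without it. COL11A1 was at 153 and 129 CPM in the follicular pools, against 166 and 224 CPM in the anestrus pools. Here anestrus pool 2 was the high one, and the log2 fold change of -0.47 ± 0.19 became -0.19 without it. COL11A2, the second chain of type XI, overlapped between groups and had 0.43 ± 0.36, or 0.055 without anestrus pool 2 and 0.99 without anestrus pool 1. COL24A1 and COL27A1, minor fibrillar chains, were at nearly one level in all pools, COL24A1 between 8.77 and 9.18 CPM and COL27A1 between 29.5 and 32.2 CPM.

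**Figure D2:**
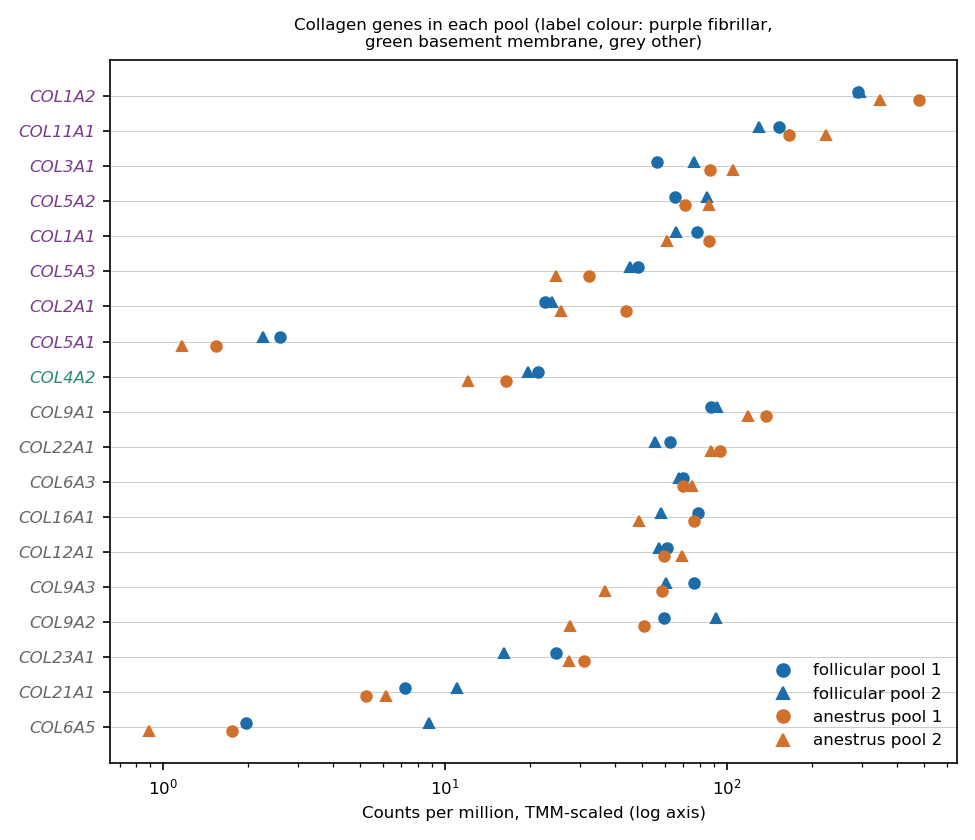
CPM after TMM scaling (log axis) of 19 collagen genes in each pool: the 12 with the highest mean CPM and the 6 with the largest log2 fold change in each direction. Blue marks are follicular and orange marks anestrus pools, circles pool 1 and triangles pool 2; COL22A1 and COL5A3 show groups that stand apart with close pools, COL9A2 and COL6A5 groups with distant pools.

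Fibroblasts, those of the meninges among them, are the known main source of fibrillar collagen. The 12 marker genes of that list found in the table summed to 902 and 1019 CPM in the follicular pools, against 1334 and 1351 CPM in the anestrus pools. None was at 0 in all pools, 0 of 12 were called, 8 had a negative and 4 a positive log2 fold change, and 6 were higher in anestrus at an unadjusted p under 0.05 (50.0%, beside 4.29% of all genes). DCN, the fibril-binding proteoglycan decorin, was at 263 and 321 CPM in the follicular pools, against 532 and 501 CPM in the anestrus pools (adjusted p = 0.114, edgeR). The part of these markers in the values of the fibrillar genes was not tested.

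The basement membrane class had a median log2 fold change of -0.20, with 7 of 8 genes below 0, while 49.9% of all genes were above 0. The individual log2 fold changes ran from -0.38 to 0.53. At an unadjusted p under 0.05 there were 0 of 8, beside 8.55% of all genes, which in so small a class does not set it apart. In 4 of the 8 the groups did not overlap (50.0%, beside 38.3% of all genes), 3 higher in anestrus and 1 in the follicular phase. COL4A1 and COL4A2, whose chains join in the type IV collagen of nearly all basement membranes, stand next to each other in the annotation. COL4A2 was at 21.4 and 19.7 CPM in the follicular pools, against 16.4 and 12.05 CPM in the anestrus pools. It was higher in both follicular pools, at a log2 fold change of 0.53 ± 0.26 (adjusted p = 0.633, edgeR). COL4A1 overlapped between groups, at 42.8 and 34.5 CPM against 44.7 and 38.3 CPM.

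The other type IV chains have a more restricted known distribution, with COL4A3, COL4A4 and COL4A5 joined in the kidney filter and COL4A5 and COL4A6 joined around smooth muscle. COL4A3 was at 26.6 and 27.8 CPM in the follicular pools, against 30.0 and 40.6 CPM in the anestrus pools. Its neighbour COL4A4 was at 12.1 and 10.6 CPM in the follicular pools, against 14.5 and 13.0 CPM in the anestrus pools. Both were higher in both anestrus pools, at log2 fold changes of -0.38 ± 0.22 and -0.27 ± 0.27. Without anestrus pool 2 that of COL4A3 was -0.100. COL4A5 and COL4A6 overlapped between groups, with anestrus pool 2 the highest pool for both, at 53.4 and 20.0 CPM.

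COL15A1, a collagen at the border of vessel basement membranes, was at 53.2 and 44.7 CPM in the follicular pools, against 57.0 and 66.2 CPM in the anestrus pools. Its groups did not overlap (log2 fold change -0.33 ± 0.19). COL18A1, the source of the fragment endostatin, was at 25.5 and 15.2 CPM in the follicular pools, against 32.5 and 13.2 CPM in the anestrus pools. Pool 1 was the higher pool in each group, as in 33.2% of all genes tested. The spread within anestrus was 2.47-fold, so only a large difference would be detectable. Choroid plexus markers, a list of 9 genes with none at 0, summed to 394 and 147 CPM in the follicular pools, against 173 and 158 CPM in the anestrus pools. Within that sum TTR, the thyroid hormone carrier transthyretin, was at 252 and 27.4 CPM in the follicular pools, against 61.1 and 17.7 CPM in the anestrus pools. Without TTR the other 8 genes summed to 142 and 120 CPM and to 112 and 140 CPM, in the same order, and 6 of the 9 were higher in anestrus pool 2 than in anestrus pool 1. The part of these markers in COL18A1 was not tested.

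Markers of the cells that capillary basement membranes enclose showed small medians. The 12 endothelium markers summed to 441 and 429 CPM in the follicular pools, against 401 and 453 CPM in the anestrus pools, with a median log2 fold change of 0.035, 0 called and none at 0. The 12 pericyte and smooth muscle markers summed to 448 and 498 CPM and to 434 and 465 CPM, in the same order, with a median of 0.10 over the 11 tested, 0 called and none at 0.

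The remaining 23 genes tested had a median log2 fold change of 0.0037, with 12 above 0 and 11 below, and the widest range of the classes, from -0.62 to 2.02. At an unadjusted p under 0.05 there were 4 of 23 (17.4%, beside 8.55% of all genes): COL22A1 and COL9A1 were higher in anestrus and COL9A2 and COL6A5 in the follicular phase. All of these but COL6A5 are FACIT collagens.

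Type IX collagen, a FACIT collagen known from the surface of type II fibrils in cartilage, is built from one chain each of COL9A1, COL9A2 and COL9A3. COL9A1 was at 87.9 and 92.0 CPM in the follicular pools, against 137 and 118 CPM in the anestrus pools, 1.42-fold higher in anestrus (log2 fold change -0.51 ± 0.17, adjusted p = 0.374, edgeR). The pools of a group lay closer together than the groups did. COL9A2 was at 59.7 and 91.2 CPM in the follicular pools, against 50.9 and 27.6 CPM in the anestrus pools, 1.92-fold higher in the follicular phase (log2 fold change 0.94 ± 0.31, adjusted p = 0.425, edgeR). Its groups did not overlap, though its own pools differed 1.53-fold in the follicular phase and 1.84-fold in anestrus. COL9A3 was at 76.4 and 60.8 CPM in the follicular pools, against 58.6 and 36.9 CPM in the anestrus pools, again higher in both follicular pools (log2 fold change 0.53 ± 0.24, adjusted p = 0.595, edgeR). The chains of this 1 collagen thus had log2 fold changes of both signs.

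The call of COL9A2 turned on settings. Its adjusted p was 0.00103 with no count filter and 1.29e-07 without anestrus pool 1, at log2 fold changes of 0.96 and 1.45. Without follicular pool 2 or anestrus pool 2 its log2 fold change was 0.61 each time, with adjusted p-values of 0.999 and 0.0993 (edgeR). COL9A3 had a log2 fold change of 0.90 without anestrus pool 1 (adjusted p = 0.00369) and of 0.27 without anestrus pool 2 (adjusted p = 0.642, edgeR). With 1 pool left in a group, that pool is assumed to vary as those of the other group do.

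The summed levels of the oligodendrocyte and myelin markers, and of the neuron markers given above, were ordered over the pools as COL9A2 was. Single markers of these lists did not all have that order, SYT1 and CNP among those without it. COL6A5 had it too, while COL9A3 did not, as follicular pool 1 was its highest pool. How many of all genes share the order was not worked out. The 12 oligodendrocyte genes summed to 3674 and 4956 CPM in the follicular pools, against 3103 and 2005 CPM in the anestrus pools. Follicular pool 2 was the highest and anestrus pool 2 the lowest, with none of the 12 genes at 0, 0 called and a median log2 fold change of 0.77. At an unadjusted p under 0.05 (edgeR), 11 of the 12 were higher in the follicular phase, beside 4.26% of all genes, as were 5 of 12 neuron markers. Astrocyte markers, 9 in the table and none at 0, summed to 9767 and 10773 CPM in the follicular pools, against 6058 and 6160 CPM in the anestrus pools. GFAP, the intermediate filament of astrocytes, was the 1 of these 9 that passed the test, higher in the follicular phase. With GFAP, 6 of the 9 were higher there at an unadjusted p under 0.05 (edgeR). The part of these lists in the values of COL9A2 and COL9A3 was not tested.

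**Figure D3:**
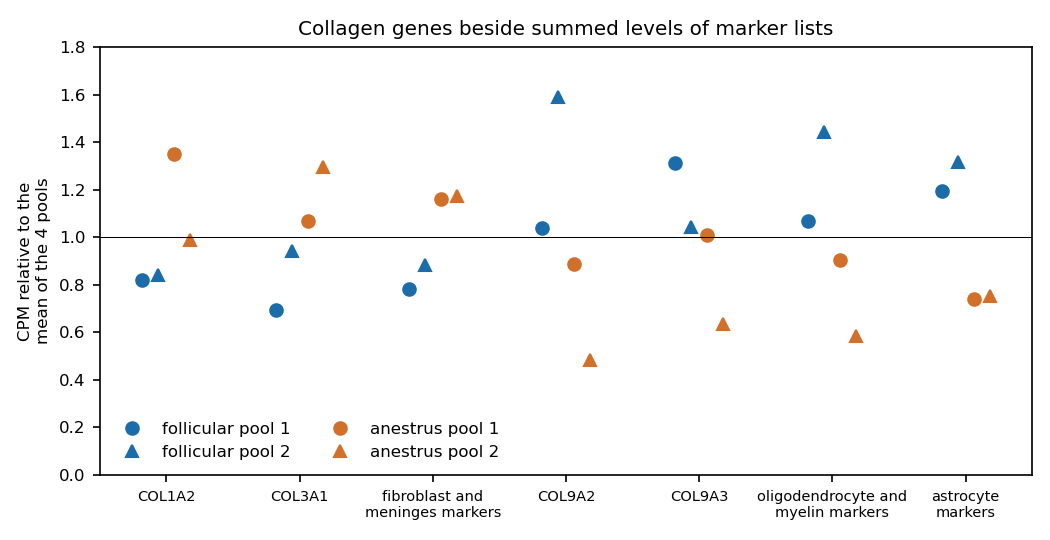
Levels of 4 collagen genes and summed levels of 3 marker lists (vertical axis: CPM divided by the mean of the 4 pools), with blue follicular and orange anestrus pools, circles for pool 1 and triangles for pool 2. COL1A2, COL3A1 and the fibroblast list lie higher in both anestrus pools. COL9A2 and the summed oligodendrocyte list share the order of the 4 pools, as do the summed neuron list and COL6A5 (neither drawn).

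COL22A1, a FACIT collagen known from tissue junctions such as that of muscle and tendon, had the smallest p of all members. It was at 62.7 and 55.4 CPM in the follicular pools, against 94.0 and 87.9 CPM in the anestrus pools. The pools of each group lay close together and the groups stood apart, 1.54-fold (log2 fold change -0.62 ± 0.17, adjusted p = 0.282, edgeR). Over the 13 alternative analyses its log2 fold change stayed between -0.70 and -0.54 and it was called in 0. COL14A1, a FACIT collagen of dense connective tissue, was also higher in both anestrus pools (log2 fold change -0.44 ± 0.27). COL21A1, a FACIT collagen of vessel walls, was at 7.20 and 11.0 CPM in the follicular pools, against 5.26 and 6.16 CPM in the anestrus pools (log2 fold change 0.66 ± 0.34). COL12A1 and COL16A1, which attach to fibrils in many tissues, overlapped between groups, at log2 fold changes of -0.12 ± 0.18 and 0.13 ± 0.24.

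Type VI collagen forms beaded filaments close to cells from COL6A1, COL6A2 and COL6A3, with further chains that can replace the last of these. COL6A3 had the narrowest range over the pools of the 12 members with the highest mean CPM, at 69.8 and 67.6 CPM in the follicular pools, against 69.9 and 74.8 CPM in the anestrus pools. COL6A1 overlapped, at 57.0 and 48.2 CPM against 65.4 and 43.8 CPM. COL6A2 overlapped as well, at 73.4 and 50.0 CPM against 62.8 and 36.7 CPM. In both genes pool 1 was the higher pool of each group, as in 45.2% of the members and 33.2% of all genes tested.

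COL6A5, one of the alternative type VI chains, had the largest log2 fold change of any member, 2.02 ± 0.72 (adjusted p = 0.470, edgeR). It rested on 50 and 151 counts in the follicular phase against 25 and 16 during anestrus, or 1.97 and 8.77 CPM against 1.75 and 0.888 CPM. Follicular pool 2 was far above the other 3 pools, and follicular pool 1 barely above anestrus pool 1. Without follicular pool 2 the log2 fold change was 0.59. It was called with no count filter (adjusted p = 0.00312) and without anestrus pool 1 (adjusted p = 0.000879, both edgeR).

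COL7A1, of the anchoring fibrils that fasten epithelia to connective tissue, overlapped between groups, at 32.9 and 21.7 CPM against 23.3 and 14.7 CPM (log2 fold change 0.53 ± 0.30). The short-chain genes COL8A1, COL8A2 and COL10A1 overlapped too, with log2 fold changes between -0.11 and 0.22. Of the 4 membrane-spanning collagens, all had negative log2 fold changes, from -0.51 to -0.17, while 49.9% of all genes were above 0. At an unadjusted p under 0.05 there were 0 of 4 (all genes 8.55%), and so few genes do not set the subclass apart. COL23A1 was the furthest from 0 of these, at 24.7 and 16.2 CPM in the follicular pools, against 31.0 and 27.5 CPM in the anestrus pools. COL25A1, which encodes a neuronal membrane collagen, was at 1.93 and 1.86 CPM against 2.17 and 2.50 CPM, a gap of few counts (49 and 32 against 31 and 45).

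The members near the detection limit were COL6A6, COL10A1, COL19A1 and COL20A1, each with a mean under 1 CPM. COL19A1 and COL20A1 did not pass the filter and were not tested. COL19A1 had 13 and 6 counts in the follicular phase against 1 and 16 during anestrus, and COL20A1 had 2 and 3 against 12 and 4. COL20A1 was thus higher in both anestrus pools, but at such depth neither gene can be read as differing or not.

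Shares of counts between chains of 1 collagen do not depend on how libraries are scaled, although they do depend on transcript length and so are compared only between libraries. The 11 pairs examined were chosen after the levels were seen, and their shares are a description without a test. COL9A2 made up 40.4% and 49.8% of the counts of COL9A2 plus COL9A1 in the follicular pools, against 27.0% and 19.0% in the anestrus pools. The 95% Wilson intervals, which cover counting error only, were 38.9 to 42.0% for the lower follicular and 25.4 to 28.8% for the higher anestrus pool. COL9A3 made up 46.5% and 39.8% of COL9A3 plus COL9A1 in the follicular pools, against 29.9% and 23.8% in the anestrus pools. Both shares were higher in both follicular pools. This follows from the levels given above, where COL9A1 was higher in both anestrus pools and COL9A2 and COL9A3 in both follicular pools.

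Type I chains differed by less. COL1A2 made up 78.7% and 81.8% of the type I counts in the follicular pools, against 84.7% and 85.1% in the anestrus pools. The nearest pools of the groups lay about as far apart as the follicular pools did. COL4A2 made up 33.3% and 36.4% of COL4A2 plus COL4A1 in the follicular pools, against 26.9% and 23.9% in the anestrus pools. COL5A3 made up 42.4% and 34.8% of COL5A3 plus COL5A2 in the follicular pools, against 31.4% and 22.3% in the anestrus pools. By contrast COL4A6 held 27.3% and 27.7% of COL4A6 plus COL4A5 in the follicular pools, against 29.3% and 27.3% in the anestrus pools, within the counting intervals of each other.

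**Figure D4:**
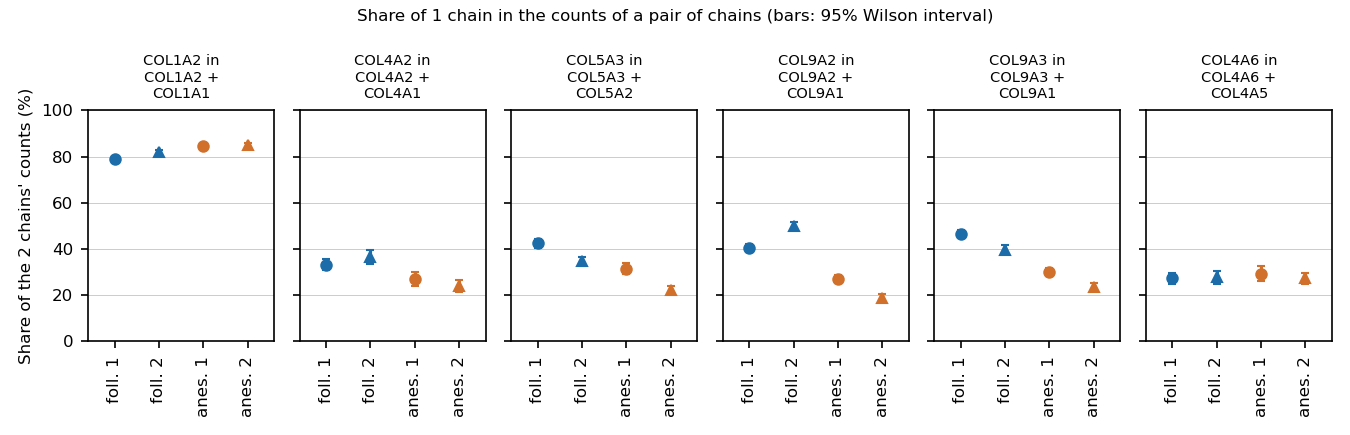
Share of the first named chain in the summed counts of 2 collagen chains (vertical axis, percent) in each pool, for 6 pairs; blue is follicular, orange anestrus, and bars are 95% Wilson intervals. The COL9A2 share is 40.4% and 49.8% in the follicular pools against 27.0% and 19.0% in the anestrus pools, while the COL4A6 share stays between 27.3% and 29.3%.

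In the annotation 6 pairs of members are direct neighbours among protein-coding genes, and 5 pairs had both genes tested. Of these 5, 3 had log2 fold changes of the same sign (COL3A1 with COL5A2, COL4A3 with COL4A4, COL6A5 with COL6A6) and 2 had opposite signs (COL4A1 with COL4A2, COL6A1 with COL6A2). How often neighbours share a sign over all genes was not worked out.

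Genes that make, assemble, bind or degrade collagen were examined as 6 lists of 99 genes, of which 91 were tested and 0 called (all genes 0.203%). At an unadjusted p under 0.05 10 of the 91 lay higher in anestrus (all genes 4.29%) and 1 in the follicular phase (all genes 4.26%). Their median log2 fold change was -0.054.

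The list of synthesis and folding enzymes had a median log2 fold change of -0.18, with 5 of 22 genes above 0 (all genes 49.9%) and 0 called. Its smallest p-values were those of SEC24D, a coat protein of the vesicles that carry procollagen, and P3H4, part of the complex that modifies lysines of type I collagen. SEC24D was at 44.7 and 39.6 CPM in the follicular pools, against 58.7 and 73.2 CPM in the anestrus pools (adjusted p = 0.322, edgeR). P3H4 was at 23.6 and 17.1 CPM in the follicular pools, against 52.0 and 30.0 CPM in the anestrus pools (log2 fold change -1.01 ± 0.29, adjusted p = 0.323, edgeR). Both had groups that did not overlap. In the other direction the smallest p-values belonged to the lysyl hydroxylase PLOD2 and the coat protein SEC23A, at log2 fold changes of 0.34 ± 0.21 and 0.28 ± 0.19.

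Processing and cross-linking genes had a median of -0.017, with 7 of 14 above 0 and 0 called. The propeptide-cleaving proteases TLL1 and BMP1 had log2 fold changes of 0.77 ± 0.39 and 0.45 ± 0.28, and the cross-linking enzyme LOX and the propeptidase ADAMTS3 had -0.58 ± 0.33 and -0.47 ± 0.34. Collagen receptors had a median of 0.093, with 7 of 10 above 0 (all genes 49.9%) and 0 called. ADGRG1, an adhesion receptor that binds type III collagen, was at 81.5 and 73.3 CPM in the follicular pools, against 63.7 and 52.2 CPM in the anestrus pools (log2 fold change 0.42 ± 0.18, adjusted p = 0.556, edgeR). The integrin subunits ITGA11, ITGA1 and ITGA10 had 0.89 ± 0.66, -0.33 ± 0.22 and -0.21 ± 0.29.

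Among 13 breakdown genes tested the median was -0.038 and 0 were called. MMP2, the gelatinase that digests denatured and type IV collagen, was at 37.7 and 33.0 CPM in the follicular pools, against 46.4 and 73.2 CPM in the anestrus pools (log2 fold change -0.76 ± 0.24, adjusted p = 0.349, edgeR). The inhibitor TIMP1 also lay higher in both anestrus pools (-0.42 ± 0.19). TIMP2 and the membrane protease MMP24 had 0.27 ± 0.16 and 0.42 ± 0.28.

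The 15 basement membrane partners had a median of -0.14, with 7 above 0 and 0 called. NID1, the nidogen that links laminin to type IV collagen, had -0.37 ± 0.17, and the laminin chain LAMA5 and the proteoglycan AGRN had 0.70 ± 0.43 and 0.31 ± 0.20. Fibril partners and growth factor inputs, 17 tested, had a median of -0.054 and 0 called. POSTN, the matrix protein periostin, was at 29.1 and 31.2 CPM in the follicular pools, against 47.5 and 45.7 CPM in the anestrus pools (log2 fold change -0.63 ± 0.19, adjusted p = 0.342, edgeR). TGFB3 and TGFB2, growth factors of matrix synthesis, had -0.61 ± 0.25 and 0.21 ± 0.17, and the microfibril gene FBN2 had 0.32 ± 0.33.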

How the data were processed

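The authors deposited raw read counts, whole numbers per gene and library, for 4 pools. Per the submitters' processing notes, the tools used were featureCounts 2.0.0, SAMtools 1.9, Bowtie2 2.3.5.1, TopHat2 2.1.1, FastQC and bcl2fastq 2.20. RNA was extracted with TriReagent and made into stranded mRNA libraries, per the labels' protocols. Genome build, annotation and strand setting are not given in those sources, so no coordinates are printed. Pool numbers follow the library names that head the columns; in the sample titles the anestrus numbers are swapped.

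Genes were filtered with filterByExpr (minimum count 10, minimum total 15), scaled by TMM and tested on the whole table with edgeR 4.0.16 in R 4.3.3 (robust glmQLFit, glmQLFTest, 2 residual degrees of freedom), with Benjamini-Hochberg adjustment. Standard errors are the log2 fold change divided by the square root of F. The fit was tested on simulated data. DESeq2 1.42.0 and limma 3.58.1 served as alternatives. Members are named if called, among the 12 highest by mean CPM or the 6 largest log2 fold changes in each direction; other chains and genes of a list were named after their values were seen, except the 2 smallest p-values per list and direction. The members, classes and lists were chosen with earlier results of these data known. Of 220 list entries, 210 were matched, among them CCN1, CCN2 and CCN3 under the older symbols CYR61, CTGF and NOV. The result of 1 gene that the naming rule selects is not reported here.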

Additional observations from a re-analysis of the deposited data

How the results depend on the processing

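Over 13 alternatives, the number of collagen genes called was 0 except with no count filter (2) and without 1 pool (0 to 7). The 7 without anestrus pool 1 were COL3A1, COL5A3, COL11A1, COL6A2, COL6A5, COL9A2 and COL9A3, and the 2 without anestrus pool 2 were COL1A2 and COL2A1; with a lone pool, its group is assumed to vary like the other. Genes called in all numbered 34, beside 300 with no count filter, 143 with DESeq2, 90 with a replicate block, and, leaving out 1 pool, 4 (follicular pool 1), 818 (anestrus pool 1) or 555 (anestrus pool 2). Nothing in the labels ties equal pool numbers together, and the block left 0 collagen genes called; pool 1 minus pool 2 correlated at 0.26 across genes between the groups. Without 1 pool, medians ran from -0.145 to 0.01746 for all members, -0.009888 to 0.06792 for fibrillar, -0.2937 to -0.1324 for basement membrane and -0.1227 to 0.06376 for the other genes. In limma-voom the log2 fold change changed sign for COL18A1 (0.01467) and COL1A1 (0.004597). Without 1 pool it changed sign, within the ranges given, for COL4A1 (-0.2489 to 0.0463), COL4A5 (-0.4154 to 0.1541), COL4A6 (-0.398 to 0.0245), COL18A1 (-0.6257 to 0.6334), COL1A1 (-0.213 to 0.2412), COL5A2 (-0.2618 to 0.1261), COL24A1 (-0.009888 to 0.07147), COL6A1 (-0.2711 to 0.2651), COL6A3 (-0.1227 to 0.01696), COL6A6 (-0.286 to 1.827), COL8A1 (-0.2322 to 0.07325), COL8A2 (-0.0266 to 0.4367), COL10A1 (-0.4066 to 0.682), COL12A1 (-0.2211 to 0.03054), COL16A1 (-0.1111 to 0.4912), COL17A1 (-0.4933 to 0.05997), COL26A1 (-0.3601 to 0.6346) and COL28A1 (-0.09411 to 0.1434). The cause was not tested. The sign held in all alternatives for the other 24 genes, COL22A1, COL9A1, COL9A2, COL9A3, COL1A2, COL3A1 and COL5A3 among them. The groups of these named genes did not overlap in CPM, so leaving out 1 pool could hardly reverse their sign.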
